A study of Homo sapiens with 96 samples.

Results

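OR51I1 is an olfactory receptor gene on the minus strand of chromosome 11, upstream of the beta-globin genes, and the list of A-to-I editing sites of K562 cells places 5 of its 4149 sites in the coding sequence of this gene. The sites were taken by position (GRCh38), as coding bases 289, 396, 712, 713 and 855 of the gene, and were set against the 12 other listed sites on the minus strand between 5000000 and 5700000. No site of the plus strand is listed in that window. Editing levels are fractions from 0 to 1, and a site was counted as found in a sample where its level was above 0. Read counts are not part of the list, which leaves the depth of each level unknown, and a 0 can stand for an unedited site or for one that no read covered.

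The 96 samples are total RNA of K562, a human line from a chronic myeloid leukemia, and of K562 derivatives. The study's methods call its K562 cells a clone. A time course of 20 samples was treated with imatinib, etoposide, romidepsin or the vehicle DMSO for 6, 12, 24, 36 or 48 h. Another 19 samples had DMSO, etoposide, SN-38, talazoparib or cyclophosphamide for 6 h and then actinomycin D for 0, 1, 2, 4 or 6 h, and 8 had DMSO or etoposide for 6 h and then alpha-amanitin for 0, 2, 4 or 6 h. Actinomycin D and alpha-amanitin were also given alone for 2 or 6 h, in 2 samples each. A further 9 samples had DMSO, SN-38 or etoposide for 6 h followed by a wash-out of 0, 2 or 6 h. In 10 samples a 3 h pretreatment with DMSO or with AZ-20, KU-60019 and NU7441 together preceded talazoparib, Mirin, SN-38, etoposide or DMSO for 3 or 6 h. Rapamycin or Torin1 for 3 or 6 h made 4 samples. The derivative lines gave 16 samples: AsiSI overexpression (4 and 13 days), Cas9 or LINE overexpression and CSB knockdown by shRNA (2 days each), LIG3 knockdown (8 days) and MRE11A knockdown (5 and 8 days), each with doxycycline or water. Romidepsin for 3 h and for 6 h (1 sample each), DMSO for 2 or 6 h (3 samples) and 1 untreated sample complete the set. Imatinib inhibits the BCR-ABL kinase, etoposide and SN-38 inhibit topoisomerases, romidepsin inhibits histone deacetylases and talazoparib inhibits PARP enzymes. Rapamycin and Torin1 inhibit mTOR, and AZ-20, KU-60019 and NU7441 inhibit the damage kinases ATR, ATM and DNA-PK. Almost every condition has 1 sample, so p-values compare sets of samples and measure only the spread between them. The list holds no expression values, so the identity of the cells was not checked against marker genes.

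Between 30 and 633 listed sites were found in a sample, with a median of 235.5. The 16 derivative samples held few of them (30 to 129). Sanger-tested levels of 2 locus sites (OR51I1 base 396 and 5352255), given for a romidepsin and an etoposide sample of the time course, stood in the list under the other of these drugs (both at 36 h, equal within 0.001). The columns are named here as labelled, and these drugs were not compared with each other.

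Olfactory receptors are G protein-coupled receptors of sensory neurons, encoded by large clusters of similar genes whose coding sequence usually lies in a single exon. One such cluster surrounds the beta-globin genes, which are transcribed in erythroid cells. ADAR enzymes deaminate adenosine to inosine in double-stranded RNA, and inosine is read as G, so an edited codon can be decoded differently.

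The reference base is A on the transcribed strand at all 17 locus sites. The sequences of the OR51I1 sites are shown because they fix the codon that each site changes, and 3 neighbouring sites are shown because they return in the alignments described further on. Each is the minus strand of GRCh38 written as RNA, 5′ to 3′, with 14 bases on either side, and the capital letters mark the edited base, or both edited bases of the adjacent pair.
OR51I1 base 289: accauguugcguuuAaugcuugccugguc
OR51I1 base 396: auuuguuauccauuAcgcuaugucacugu
OR51I1 bases 712 and 713: aggaacagcggcucAAggcacucaacaccu
OR51I1 base 855: gucuaccuguuuguAccacccaugcucaa
opposite OR51I2, 5453882: gagcacaguugcauAgcgcaaggggucac
opposite OR51I2, 5453876: aguugcauagcgcaAggggucacaaaugg
OR51A10P, 5468645: augugccuaugguuAguguguccaugguu
In each single-site run the edited base is the middle one. The OR51I1 runs lie, in the order shown, at chr11:5441212-5441240, chr11:5441105-5441133, chr11:5440788-5440817 and chr11:5440646-5440674. The others lie at chr11:5453868-5453896, chr11:5453862-5453890 and chr11:5468631-5468659.

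The annotated site at base 289 is the first base of codon 97, where editing turns AAU into GAU (N97D). Annotated here means present in public databases of editing sites. The other 4 sites are unannotated, and they are the whole set of unannotated sites that the list holds in coding sequences (34 sites in all). Sanger sequencing of RNA by the study, with genomic DNA as control, found editing at these 4 sites, including a base beside a tested site. Most other unannotated coding candidates called by both REDItools and RED-ML showed no editing in that test. The list was filtered after Sanger tests of sites by genomic element, so the presence of these 4 is not independent of their own test. At bases 396 and 855 the last base of codons 132 and 285 is edited, which leaves leucine (L132L) and valine (V285V). Both bases of the adjacent pair fall in codon 238, base 712 giving K238E and base 713 K238R. The sites are named below by these changes. None of the 5 sites was called by SPRINT, and the list gives each as called by REDItools and RED-ML. For K238E the sources conflict, since the study's supplement has this base as seen by Sanger sequencing alone.

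In GENCODE release 44, OR51I1 (ENSG00000167359.8) is a single exon of the minus strand at chr11:5440570-5441514, with 314 codons before the stop. The same bases lie inside introns of longer minus-strand transcripts. These include a transcript of HBG2, a gamma-globin gene, which runs from 5253190 to 5505605, and transcripts of HBE1, the epsilon-globin gene, which start near the same point. Transcripts of OR51B5, another olfactory receptor, and of ENSG00000239920 span it as well. All 17 locus sites fall in introns of each of these 8 long transcripts and none falls in an exon of them. A read over an OR51I1 site could therefore come from OR51I1 or from any of these introns, and the levels cannot be told apart by transcript. Fewer edited molecules and less RNA of the locus cannot be told apart either.

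The list gives the element of the other 12 sites as intron, and every one of them lies in the body of another olfactory receptor gene or pseudogene. The sites at 5468645 and 5468748 are in OR51A10P, a pseudogene of the same strand. The 7 sites from 5453796 to 5454278 lie opposite an exon of OR51I2, a receptor gene of the plus strand. Those at 5403364 (opposite the pseudogene OR51J1) and at 5352255 and 5352308 (opposite OR51B6) lie farther downstream. Exons of olfactory receptor genes, on either strand and without OR51B5, make up 7.31% of the 252418 bases of HBG2 and hold 17 of its 17 listed sites. Annotated repeats and regions of low mappability had been removed by the authors, and the share of bases left by those filters was not tested.

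The window holds 36 olfactory receptor genes and pseudogenes. A listed site lies inside OR51I1, OR51A10P and the long OR51B5 on the same strand, and opposite OR51I2, OR51J1 and OR51B6. The other 30 have none. Of the globin list, HBB, HBD, HBBP1, HBG1 and the noncoding BGLT3 have no listed site, and those of HBG2 and HBE1 are the 17 intronic ones. No olfactory receptor gene elsewhere in the genome holds a listed site of its own strand, so all 17 such sites of the list are in this window. Of these, 5 are in OR51I1 and 2 in OR51A10P, and the rest count only through introns of the long OR51B5. Sites opposite olfactory receptor genes outside the window were not counted.

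**Figure D1:**
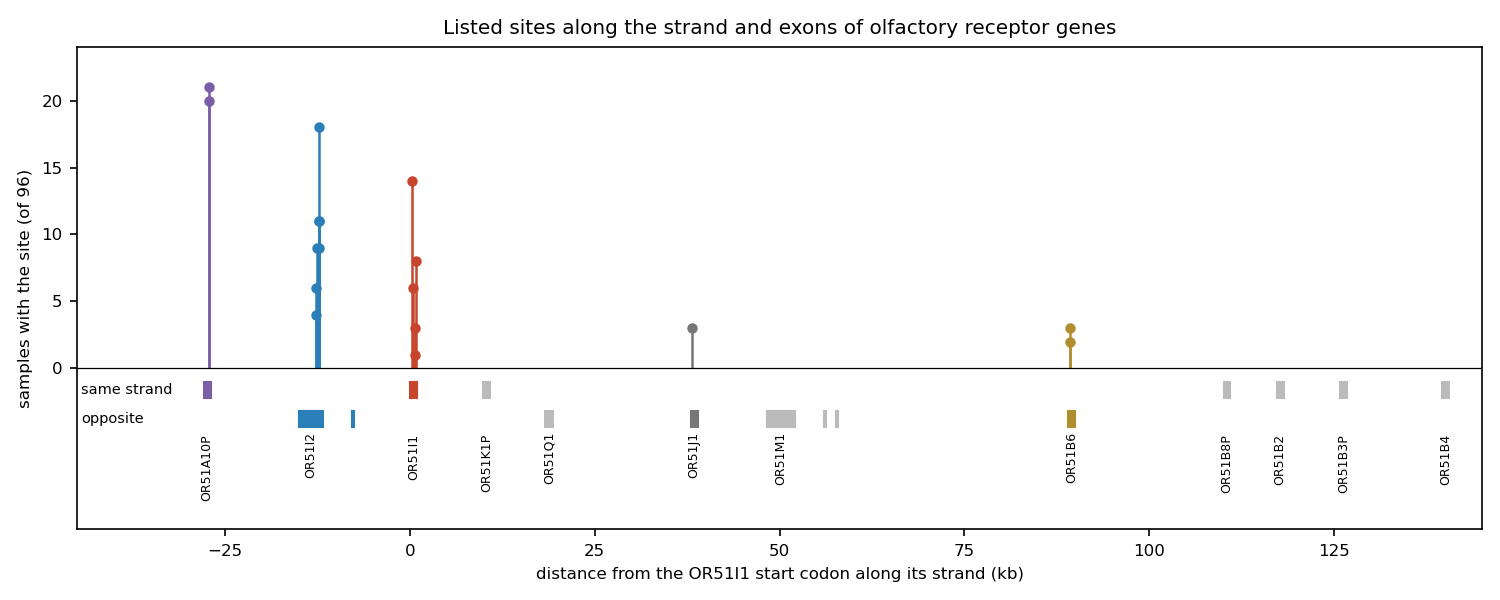
Number of the 96 samples in which each listed site was found (vertical axis) against the distance from the OR51I1 start codon along its strand in kb (horizontal axis), with exons of olfactory receptor genes as boxes on the same or the opposite strand. The 17 sites stand over 5 of these genes, and grey boxes mark genes without a site.

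At least 1 OR51I1 site was found in 21 of the 96 samples (21.9%, exact 95% interval 14.1% to 31.5%). These intervals are Clopper-Pearson. For a share of 0, the limit given is 3 counts of the total. This differs from the exact bound, at 60.0% against 52.2% for 0 of 5 and 18.8% against 20.6% for 0 of 16. Both cover counting error only. Most of these samples held few of the sites, with 14 holding 1, 3 holding 2 and 4 holding 3. No sample held 4 or 5.

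The annotated N97D site was found most often, in 14 samples. Its level was lowest in the rapamycin 3 h sample (0.0700), had a median of 0.189 and was highest, at 0.500, in etoposide samples with 4 and 6 h of alpha-amanitin. In the time course the level was 0.333 with imatinib 24 h and 0.260 with DMSO 24 h, and it was 0.141, 0.359 and 0.179 in the samples labelled etoposide at 24, 36 and 48 h. After DMSO, the levels recorded with actinomycin D were 0.1, 0.105 and 0.113 at 1, 2 and 4 h. No level of this site was recorded in that series at 0 h or at 6 h. Levels of the annotated site thus spread over the whole range seen at OR51I1, while the 3 levels recorded in the DMSO series were nearly equal.

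The synonymous L132L site was found in 6 samples and had the highest median level of the gene. They ran from 0.250 (DMSO 24 h) to 0.500 (labelled etoposide 36 h), with a median of 0.340. In the 4 samples that also held N97D it was the higher of both in 3. The other synonymous site, V285V, was found in 8 samples at 0.110 to 0.290 (median 0.149), and in the 3 samples shared with L132L it was lower in 3. These orders within samples rest on few samples and were not tested.

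The lysine codon was edited in the fewest samples. The K238R site had a level of 0.104 with etoposide 12 h as labelled, 0.220 with talazoparib followed by 6 h of actinomycin D, and 0.210 with actinomycin D alone for 6 h. The adjacent K238E site was found only in the last of these, also at 0.210. That sample is the single one in which the list has a level at both bases of codon 238, with equal values. Given the conflict over K238E, its value may not be a separate measurement from sequencing reads, and whether single molecules carried both edits cannot be seen from the list.

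Over its 32 values the median level of OR51I1 was 0.210, against 0.170 over 393 values of the other 29 listed coding sites and 0.333 over the 23123 values of the 4092 listed sites with levels. Values of the 12 neighbouring sites had a median of 0.177 (117 values). By gene, the median was 0.261 in OR51A10P and 0.132 opposite OR51I2. The number of samples per site was 1 to 14 (median 6) in OR51I1, 1 to 71 (median 5) in the other coding sites and 2 to 21 (median 9) in the neighbouring sites. OR51I1 sites thus lay within the range of other coding sites for level and for number of samples.

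Among the neighbouring sites, those of OR51A10P were found in the most samples. The site at 5468645 was found in 21 at 0.0400 to 0.560 (median 0.243), and that at 5468748 in 20 at 0.0300 to 0.500 (median 0.266). Opposite OR51I2 the number of samples ran from 4, at 5454220, to 18, at 5453876, where the level reached 0.6. The remaining sites there were found in 6 (5454278), 9 (5454048 and 5453855) and 11 samples (5453882 and 5453796), and medians of the 7 sites were 0.0556 to 0.165. Farther downstream the sites were rare, with 3 samples at 5403364 (median 0.273), 2 at 5352308 (0.206) and 3 at 5352255 (0.136). Each OR51I1 site was found in fewer samples than either site of OR51A10P.

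**Figure D2:**
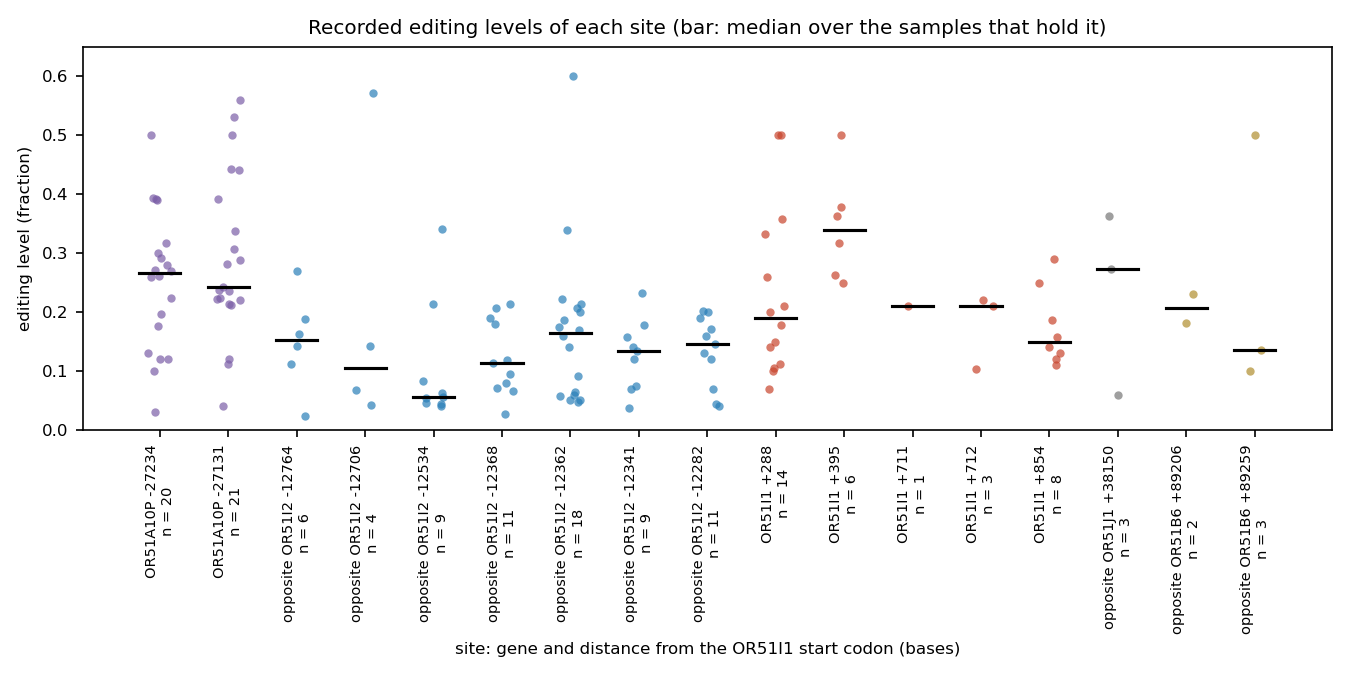
Editing level (fraction, vertical axis) of each locus site in each sample that holds it, with sites ordered along the strand by gene and distance from the OR51I1 start codon; points are samples and black bars are medians. The highest median within OR51I1 is that of the site at +395 bases (L132L, median 0.340), and single values of 0.500 or above occur in every gene but OR51J1.

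Detection along the locus overlapped in part. Of the 21 samples with OR51I1, 13 also held at least 1 of the 12 neighbouring sites (61.9%, exact 95% interval 38.4% to 81.9%), which is 33.3% of the 39 samples with a neighbouring site. In 8 samples OR51I1 was found alone, in 26 a neighbouring site without OR51I1, and in 49 none of the 17. Neighbouring sites were thus found in 39 of all 96 samples and in 26 of the 75 without OR51I1. The derivative and wash-out samples, with medians of 62.5 and 133 listed sites, held no OR51I1. Of them, 2 of 16 and 0 of 9 held a neighbouring site. The part of the number of listed sites per sample in this overlap was not tested. Sites of OR51A10P were found with OR51I1 in 13 of their 26 samples and sites opposite OR51I2 in 11 of their 30. The site opposite OR51J1 was never found with OR51I1 (0 of 3 samples) and those opposite OR51B6 once (1 of 4). The most locus sites in any sample were 10, with 3 in OR51I1 and 7 among the neighbours, after DMSO and 4 h of actinomycin D, after 6 h of actinomycin D alone, and, with 1 in OR51I1 and 9 among the neighbours, after DMSO and 2 h of actinomycin D. By pair, N97D shared most with 5468645 of OR51A10P, in 8 of the 27 samples that held either.

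Co-detection was also counted by agent. In the 21 samples of the actinomycin D series, with the agent alone or after a drug and 0 h included, OR51I1 was found in 9 and neighbouring sites in 17, and all 9 held both. In the 10 samples of the alpha-amanitin series OR51I1 was found in 4 and neighbouring sites in 2, with no sample in common. In the time course the numbers were 6, 11 and 4 in common, of 20 samples. The actinomycin D series held 191 to 452 listed sites per sample and the alpha-amanitin series 177 to 291. The difference in co-detection between the series was not tested, since it was noticed in these samples.

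**Figure D3:**
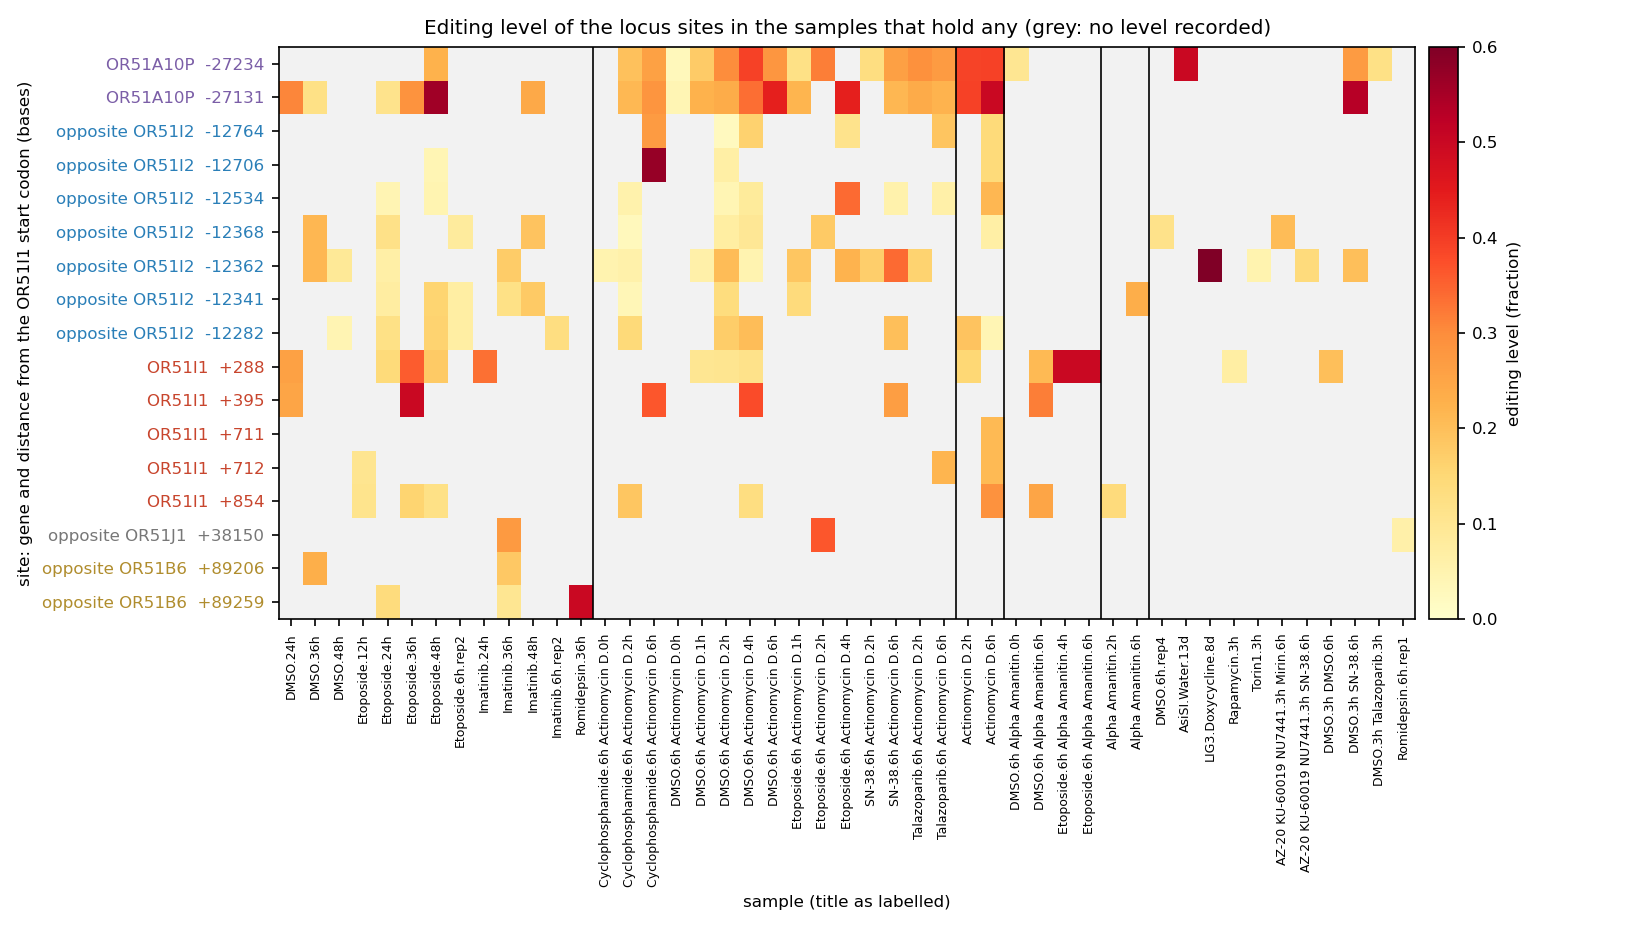
Editing level (colour, fraction) of the 17 locus sites (rows, by gene and distance from the OR51I1 start codon in bases) in the 47 samples that hold any of them (columns), grouped as time course, actinomycin D after a drug, actinomycin D alone, alpha-amanitin after a drug, alpha-amanitin alone and others; grey means no level recorded. All 9 samples of the actinomycin D series with OR51I1 also hold a neighbouring site, while the 4 alpha-amanitin samples with OR51I1 hold no other locus site. With or without OR51I1, neighbouring sites were found in 17 of the 21 actinomycin D samples and 2 of the 10 alpha-amanitin samples.

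Whether detection of OR51I1 moved with treatment was tested in 8 comparisons by Fisher's exact test, two-sided, with Benjamini-Hochberg adjustment over the 8. In none was the adjusted p under 0.05, and 1 of them had an unadjusted p under it. Every locus site found in at least 3 samples of a comparison was also tested, with adjustment over all listed sites tested there. None of those tested had an adjusted p under 0.05. No locus site could be tested between doxycycline and water, 1 could be tested for alpha-amanitin, and no OR51I1 site could be tested for imatinib.

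In the time course, OR51I1 was found in 5 of 12 samples at 24, 36 or 48 h and in 1 of 8 at 6 or 12 h (41.7% against 12.5%, exact p = 0.325, adjusted p = 0.743). By time, 3 of 4 samples held it at 24 h and 1 of 4 at each of 12, 36 and 48 h. The annotated N97D site was found in 5 of 12 late and 0 of 8 early samples (exact p = 0.0547, adjusted p = 0.217), and 5468645 of OR51A10P in 6 of 12 and 0 of 8 (exact p = 0.0419, adjusted p = 0.217). Of 803 sites tested in this comparison 0% passed the adjusted threshold, and 139 (17.3%) had an unadjusted p under 0.05. Late samples held more listed sites, with a median of 439.5 against 158, and the part of this difference in the OR51I1 result was not tested. Neighbouring sites were found in 9 of the 12 late and 2 of the 8 early samples.

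Drugs of the time course gave no larger difference. OR51I1 was found in 1 of 5 imatinib samples and 1 of 5 DMSO samples (exact p = 1.0; the smallest p this number of positive samples allows is 0.444). In samples labelled etoposide or romidepsin it was found in 4 of 10, all 4 labelled etoposide, against 1 of 5 with DMSO (exact p = 0.6, adjusted p = 0.801). The difference of 20 percentage points turned to -10 when only levels above 0.2 were counted, and was 40 without the DMSO 24 h sample. The share of all tested sites called was 0% in both comparisons (492 and 563 sites, with 7 and 32 at an unadjusted p under 0.05). For imatinib, with 5 samples in each arm, a call needed many sites at the smallest possible p, so 0% says little.

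Actinomycin D blocks transcription by binding DNA. After 1 to 6 h of it OR51I1 was found in 7 of 14 samples (50%, exact 95% interval 23.0% to 77.0%), and at 0 h in 0 of 5, which allows a share of up to 60.0%. This difference was not past the threshold (exact p = 0.106, adjusted p = 0.424). With 7 positive samples and 0 of them at 0 h, no smaller p was possible in this direction. By time the numbers were 1 of 2 at 1 h, 2 of 5 at 2 h, 1 of 2 at 4 h and 3 of 5 at 6 h. Sites of OR51A10P showed a like direction, at 5468748 with 12 of 14 against 1 of 5 (exact p = 0.0173, adjusted p = 0.228) and at 5468645 with 11 of 14 against 1 of 5 (exact p = 0.0379, adjusted p = 0.355). In OR51I1, the N97D and L132L sites were each found in 3 of 14 and 0 of 5 (adjusted p = 0.812, Fisher's exact test). In this comparison 2.62% of the 686 tested sites were called, 16 of those 18 found less often after actinomycin D, and 0 of the 10 tested locus sites were among them. The number of listed sites was similar, with medians of 306.5 with actinomycin D and 284 at 0 h.

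Alpha-amanitin inhibits RNA polymerase II. OR51I1 was found in 3 of 6 samples after 2 to 6 h of it and in 0 of 2 at 0 h (exact p = 0.464, adjusted p = 0.743). The samples at 0 h were too few for the 3-count limit, and with these numbers no p under 0.107 was possible. No OR51I1 site was found at 2 h (0 of 2), while 1 of 2 samples held one at 4 h and 2 of 2 at 6 h. Neighbouring sites were found in 0 of the 6 samples with alpha-amanitin and in 1 of the 2 at 0 h. Of the 178 sites tested 0% were called, and 2 had an unadjusted p under 0.05. With arms of 6 and 2 samples a call needed most tested sites at the smallest possible p, so this share was nearly fixed in advance. The medians of listed sites were 206 and 234.

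The drug given first was compared next. Over the actinomycin D, alpha-amanitin and wash-out samples OR51I1 was found in 3 of 18 that had etoposide or SN-38 first and 4 of 12 that had DMSO first (16.7% against 33.3%, exact p = 0.392, adjusted p = 0.743). For the N97D site alone the numbers were 2 of 18 and 4 of 12 (exact p = 0.184, adjusted p = 0.809). Of the 817 sites tested 0% were called, and 41 had an unadjusted p under 0.05. Some samples entered only the comparison with the derivative lines. Among them OR51I1 was found in both with actinomycin D alone and in 1 of 2 with alpha-amanitin alone. It was also found in 1 of 4 with rapamycin or Torin1 and in 1 of 10 pretreated samples, the last with DMSO only. It was not found in the untreated sample. All 9 wash-out samples lacked the 17 locus sites, which allows a share of up to 33.3%, and they held 76 to 263 listed sites.

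In the 16 samples of derivative lines OR51I1 was not found (0 of 16, which allows a share of up to 18.8%), against 21 of the other 80 K562 samples (26.3%). The unadjusted exact p was 0.0191 and the adjusted p was 0.153. The derivative samples held a median of 62.5 listed sites, against 260 in the others, so the line and the number of sites found cannot be told apart. Among 2260 tested sites 0.575% were called, each found less often in the derivatives, and none of the 15 tested locus sites was among them. In the derivatives 2 samples held a neighbouring site, 1 with water (AsiSI, 13 days, OR51A10P) and 1 with doxycycline (LIG3, 8 days, opposite OR51I2). Doxycycline and water could not be compared for OR51I1, with 0 of 8 samples each (up to 37.5%). Of 106 sites tested 0% were called and 0 had an unadjusted p under 0.05.

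**Figure D4:**
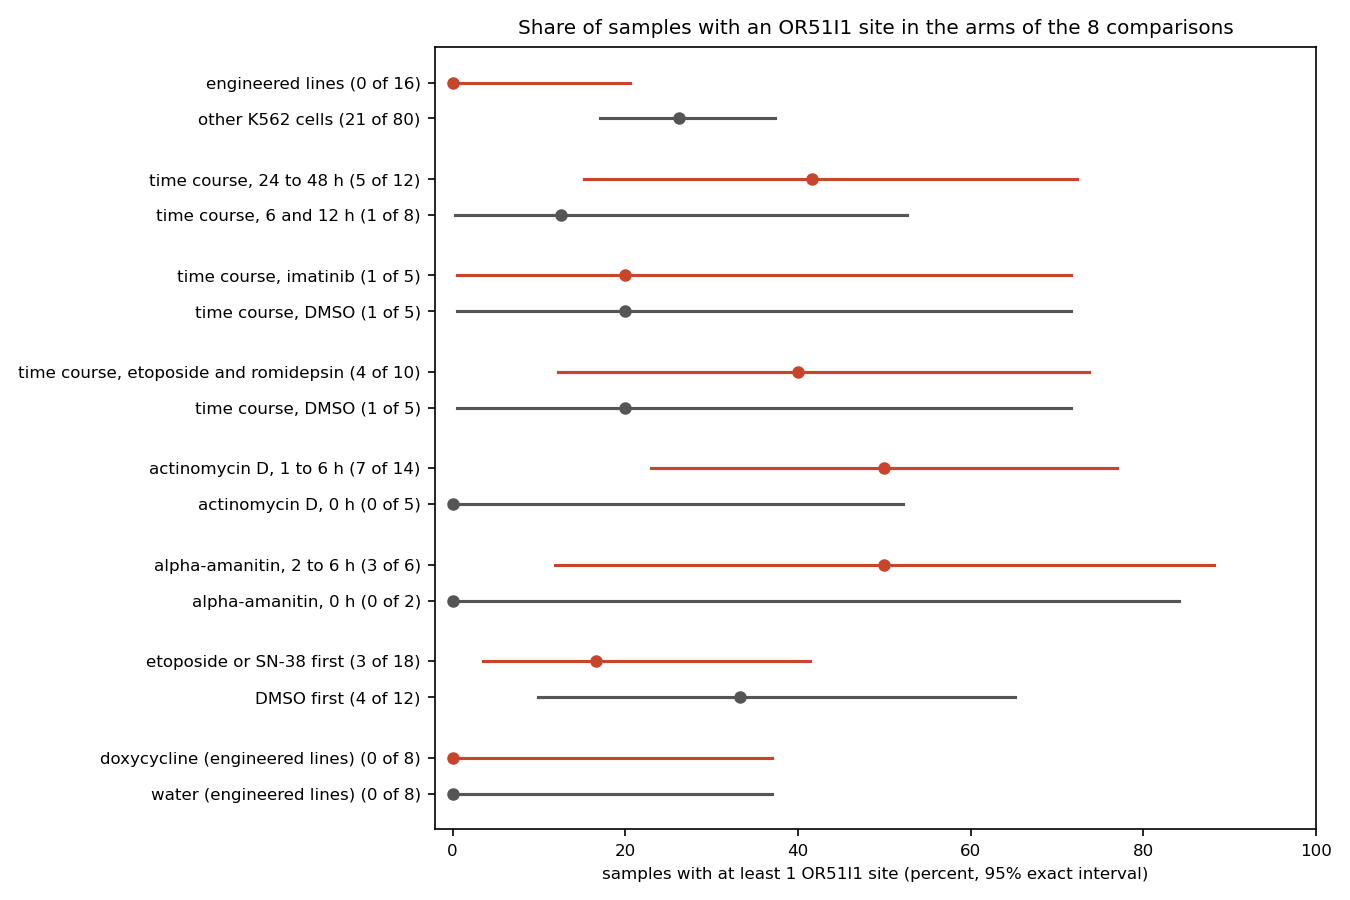
Percent of samples with at least 1 OR51I1 site (horizontal axis) in each arm of the 8 comparisons; points are shares, lines are exact 95% intervals, and the counts stand beside each arm. The intervals of the arms overlap in every comparison, including the derivative lines (0 of 16) and the other K562 samples (21 of 80).

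Outside the window, the 5 sites whose samples matched those of OR51I1 best were taken from 2245 sites found in at least 3 samples. Likeness was the number of shared samples divided by the number with either (Jaccard index). They were an intronic site of CALU, a calcium-binding protein of the secretory pathway (chr7:128742598, 16 of 49 samples, 0.327), one of SDF4 (chr1:1222080, 11 of 34, 0.324) and one of EML2 (chr19:45619544, 10 of 31, 0.323). A site outside annotated genes (chr11:124585065, 9 of 29, 0.310) and a coding site of COG3 (chr13:45516236, 15 of 49, 0.306) followed. Within the locus 3 sites ranked above all of these, 5468645 of OR51A10P at 0.448 and 5454048 and 5453796 opposite OR51I2 at 0.364 and 0.333. All sites were read in the same libraries, which differ in the number of sites found, and the index is a description only.

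Reference sequence was compared between OR51I1 and the strand of the long HBG2 transcript. The longest complementary match of the OR51I1 exon was to the bases opposite OR51I2, about 12 kb upstream. In RNA of that strand, coding bases 169 to 906 of OR51I1 are complementary to chr11:5453651-5454388, with 514 identical positions among 744 aligned (69.1%). All 5 OR51I1 sites and all 7 sites opposite OR51I2 lie in this stretch. So do 153 of the 200 adenosines of the OR51I1 exon, so a place in it was common there. Shorter complementary matches were found opposite OR51M1 (185 aligned positions, 75.1%) and OR51J1 (194 positions, 72.7%), and the latter holds codon 238, the V285V site and the site at 5403364. OR51A10P matched OR51I1 in the same orientation (67.1% over 750 positions).

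In the alignment the sites of both arms came close to each other at one place. The base opposite the L132L site is 5453878, which lies between the listed 5453876 and 5453882, at 2 and 4 bases from them. At the other OR51I1 sites the nearest listed site of the other arm was 25 to 59 bases away. No listed site was aligned to another listed site. The base opposite was C at the N97D, L132L and V285V sites and U at both bases of codon 238. Among the 153 aligned adenosines of OR51I1, C was opposite 18.3% and U opposite 65.4%. On the other arm U was opposite 6 of the 7 sites and 74.5% of the 239 aligned adenosines.

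With 100 bases on either side, all 17 locus sites had a complementary match over the site elsewhere in the HBG2 span. The same held for 146 of the 200 adenosines of the OR51I1 exon (73.0%), so a match was common there. Whether these RNAs pair in the cells was not measured. Within the OR51I1 exon by itself, RNAfold placed 0 of the 5 sites in a predicted pair, against 53.0% of the 200 adenosines. With 100 or with 50 bases on either side it placed 2 of the 5 in a pair, so this count depends on the length folded.

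The base before the edited A was U at the N97D, L132L and V285V sites, and U precedes 18% of the adenosines of the exon. The base after it was G only at the K238R site, with A or C at the other OR51I1 sites. In the 12 neighbouring sites U came before 7 and G followed 10. G follows 24.7% of minus-strand adenosines in the exon of OR51I2 and 23.9% of those in OR51A10P.

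**Figure D5:**
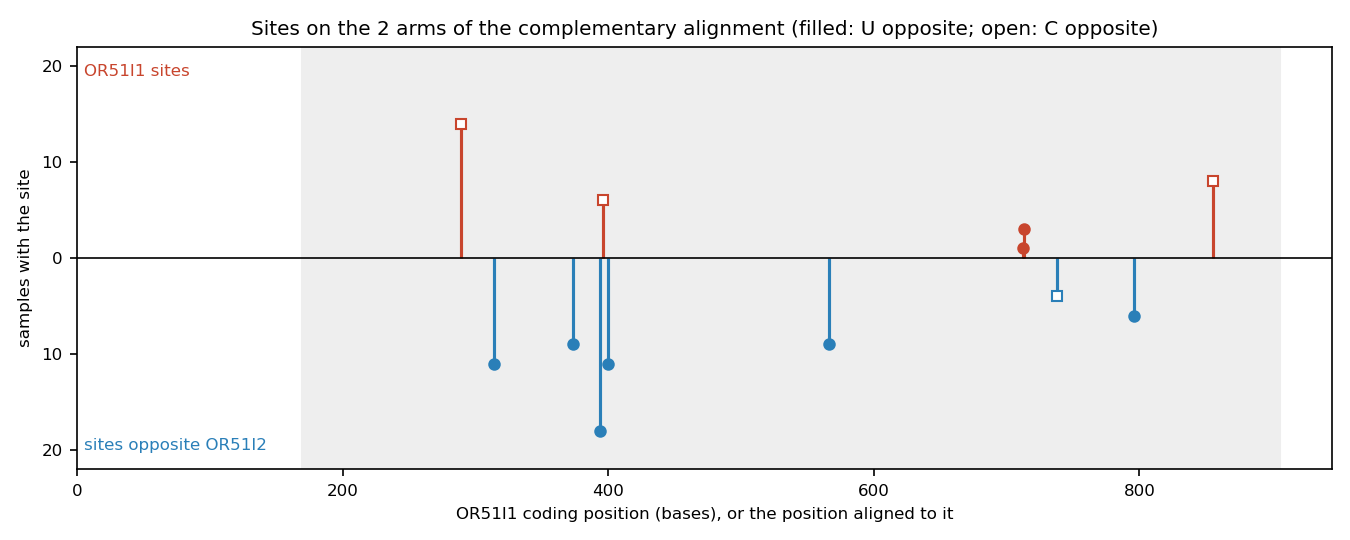
Number of samples in which each site was found (vertical axis), OR51I1 sites upward and sites opposite OR51I2 downward, placed by OR51I1 coding position in bases or by the position aligned to it; the shaded range is the complementary alignment, filled points have U opposite and open squares have C. The site at coding position 396 (L132L) stands between a pair of sites of the other arm.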

How the data were processed

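Total RNA depleted of ribosomal RNA was sequenced strand-specifically with paired reads. After trimming, the authors mapped reads to GRCh38 and removed duplicates, and each sample went through REDItools, RED-ML and SPRINT. The submitters' processing notes name TopHat2 2.1.1, Picard 2.0.1 and SAMtools 1.9. Common variants and those of the K562 genome, repeats and regions of low mappability were removed. Sites predicted from reads had to be found in at least 2 of 130 samples with a maximum level above 0.2, and tools and genomic elements were then selected after Sanger tests. Edited bases beside Sanger-tested sites, seen by Sanger sequencing alone, were added without this filter. The deposited values are editing levels as a fraction, averaged over the tools that had called it. Another 34 columns, of other samples, were left aside, and 57 sites without levels entered no test.

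Groups followed the sample labels. The members, gene lists, comparisons and the rule for named sites were chosen with earlier results of these data known. The rule names the 5 OR51I1 sites, all other listed minus-strand sites of the window, the 5 most similar sites outside it and the globin and olfactory receptor genes of the window. Fisher's exact test (two-sided) was used on shares of samples, with Benjamini-Hochberg adjustment and a threshold of 0.05, and intervals are exact 95%. Alternatives were other level thresholds, leaving out sites or samples, counts of sites by permutation (exact, or with 100000 resamples), labels permuted within strata and other filters. Tests were tried on simulated data. Genes were taken from GENCODE release 44. Complementary matches (blastn 2.17.0, expect value up to 1e-05), bases opposite the sites and the share of olfactory receptor exons were added after the data had been seen. Folding used RNAfold 2.7.2, and Python 3.11.15 was used with scipy 1.17.1, numpy 2.4.6 and pandas 2.3.3.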

Additional observations from a re-analysis of the deposited data

How the results depend on the processing

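The share of samples with OR51I1 stayed on the same side of the threshold under every alternative run. For doxycycline, imatinib and alpha-amanitin this says nothing of stability, since their numbers of positive samples allow no p under 1.0, 0.444 and 0.107. For actinomycin D the main numbers allow no p under 0.106 by Fisher's exact test in the direction seen. A difference other than 0 changed sign in 1 case. With levels above 0.2 only, the etoposide and romidepsin samples held OR51I1 less often than DMSO (-10 percentage points against 20). At that level the difference for etoposide or SN-38 first went from -16.7 points to 0. The imatinib difference went from 0 to -20 points without the annotated site. Leaving out each sample in turn gave differences of -26.6 to -25.3 points for the derivative lines, 23.9 to 41.7 for late against early times, -20 to 20 for imatinib, 13.3 to 40 for etoposide and romidepsin, 46.2 to 53.8 for actinomycin D, 40 to 60.0 for alpha-amanitin, -21.6 to -10.6 for etoposide or SN-38 first and 0 for doxycycline. Without the annotated site the late against early difference was 12.5 points, that of alpha-amanitin 16.7 and that of the derivatives -15.0 (adjusted p = 1.0 by Fisher's exact test). In samples with at least 100 listed sites the difference for the derivatives was as large (-27.3 points), but only 3 derivative samples remained (exact p = 0.563). Without the etoposide and romidepsin samples of the time course, an alternative chosen after seeing the data, the differences were -24.3 points for the derivatives and 33.3 for late times.

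No locus site that could be tested was called with a minimum of 5 samples or with none. With a minimum of 5 none could be tested for imatinib, alpha-amanitin or doxycycline. By contrast, calls among all sites in the late against early comparison rose from 0 to 51 with a minimum of 5 (13 to 19 in the derivatives) and fell from 18 to 5 without one after actinomycin D. With levels above 0.1, 63.2% of the samples with OR51I1 held a neighbouring site. Ranking by number of shared samples named none of the same 5 similar sites. RNAfold of 100 or of 50 bases on either side placed 2 of the 5 sites in a pair. No paired analysis was possible because the labels number replicates in few groups and no comparison has 2 numbers in common between its arms. This holds for pairing by replicate number only. Sample names also match samples by treatment and time, by line and day, or by first drug. No test within first drug was run for actinomycin D or alpha-amanitin, and none within agent and time for the drug given first. Labels permuted within strata gave exact permutation p = 0.288 for late against early times (within treatment), 0.889 for etoposide and romidepsin and 1.0 for imatinib (within time) and 1.0 for doxycycline (within line and day). Small numbers of samples and the unknown depth at each site limit all of these values.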
